A study of Mus musculus with 10 samples.

Results

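The libraries described here are the 5 of 10 in the series whose tissue label is normal lung, and they were taken by that label alone. They came from wild-type mice of the NIH Swiss strain that had no treatment. Regions of formalin-fixed, paraffin-embedded lung sections were cut out by laser capture microdissection, RNA was isolated with the RNeasy FFPE kit, and total RNA was made into libraries with the SMARTer Stranded Total RNA-Seq Pico kit, a method for small inputs that does not select for poly(A) tails. The labels do not say which animal, sex or age a library came from, so some of the 5 may share an animal, and the names normal 1 to normal 5 follow the order of deposit only. No comparison with the tumour libraries was made.

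The alveoli of the lung are lined by thin alveolar type 1 cells, across which gas is exchanged, and by cuboidal type 2 cells, which make surfactant and renew the type 1 cells. A dense capillary bed lies against them, with fibroblasts, smooth muscle and resident macrophages around it. Bronchioles of the mouse are lined mainly by club cells, which secrete uteroglobin and detoxify inhaled compounds, and by ciliated cells. Because each library was a piece of tissue, fewer cells of a type and less RNA per cell cannot be told apart in any value below.

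The libraries held between 1457641 and 6817106 gene counts, with normal 3 the deepest and normal 2 and normal 5 the shallowest. Levels are given as counts scaled to a common library total (CPM, each library divided by its own gene counts), in the order normal 1 to normal 5, and as mean ± SD over the 5 libraries. A level of 100 CPM rests on 146 counts in normal 2, with a 95% Wilson interval of 84.9 to 117 CPM, and on 682 counts in normal 3, with an interval of 92.8 to 108 CPM. These intervals cover counting error only. Rank correlation between pairs of libraries lay between 0.768 and 0.859 across 8717 genes, which are not independent replicates.

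All 5 genes that mark normal lung were well above the counting floor in every library. Sftpc, the surfactant protein C gene of type 2 cells (GRCm38 chr14:70520949-70524081), was at 2554, 2950.2, 4916, 2937 and 3692 CPM, a mean of 3409.7 ± 937. Scgb1a1, the uteroglobin gene of club cells (chr19:9083636-9087958), was at 7387, 9853, 10941, 8339 and 11508 CPM, a mean of 9606 ± 1731. Both were highest in normal 3 or normal 5 and lowest in normal 1. Slc34a2, the phosphate transporter of type 2 cells (chr5:53038081-53071664), was at 1507, 1238, 1550.4, 1308 and 1365 CPM. Ager, the receptor that lines type 1 cells (chr17:34597862-34600936), was at 628, 1002, 1117, 788 and 1079.8 CPM. Tmem100, a membrane protein of lung endothelium (chr11:90030348-90036508), was at 362, 239, 529, 336 and 267 CPM. Slc34a2 varied least of the 5, with a mean of 1394 ± 132 CPM. Divided by the length of the longest annotated transcript, the order was Scgb1a1 at 20179.7 CPM per kb, Sftpc at 4305, Ager at 492, Slc34a2 at 334 and Tmem100 at 196.

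Reads were concentrated on few genes. The gene with the most counts held 10.9% of them on average, the first 10 held 20.9%, the first 100 held 33.2% and the first 1000 held 58.6%. By mean level, 15229 genes reached 1 CPM, 7107 reached 20, 1881 reached 100 and 58 reached 1000. Of the 30 genes with the highest mean CPM, 20 were protein-coding by the GENCODE annotation and the others were structural or nuclear non-coding RNAs, which a total RNA method retains. Rn45s, the ribosomal RNA precursor, was first, and Malat1, a nuclear long non-coding RNA, took 4.88, 3.36, 3.30, 4.10 and 3.07% of the counts. Lars2, the mitochondrial leucine tRNA ligase, followed at 8999, 17466, 16509.6, 15739.6 and 14243 CPM, lowest in normal 1. Its mean of 14591 CPM was above that of any other protein-coding gene. Whether these reads came from its mRNA was not tested.

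The first cell-type genes in the ranking were Scgb1a1, Epas1, Ahnak and Sftpc. Epas1, the hypoxia-inducible transcription factor that is abundant in lung endothelium (chr17:86753700-86833410), was at 10595, 7414, 9035, 9557 and 9355 CPM, a mean of 9191 ± 1153. Ahnak, a large scaffold protein placed here with the type 1 cell genes although other cells make it too, was at 4044, 4205, 6071, 4579 and 4741 CPM and was highest in normal 3. Actb, cytoplasmic actin, was at 2636, 2330.2, 2477, 2554 and 2443 CPM, and its SD of 116 CPM around a mean of 2488 was among the smallest of the 30 relative to its level. The matrix proteoglycan Bgn was at 2269.6, 2123, 1273, 2289.8 and 2283 CPM and was lowest in normal 3. Calcrl, the endothelial adrenomedullin receptor, was at 2153, 2096, 2558, 2428 and 1953 CPM. Adgrf5, an adhesion receptor of endothelium and type 2 cells, was at 1995, 1551, 2764, 1913 and 1869 CPM and highest in normal 3. Normal 3 was the highest library for 27.9% of the 7107 genes at 20 CPM or more, a share that applies to each such statement below.

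**Figure D1:**
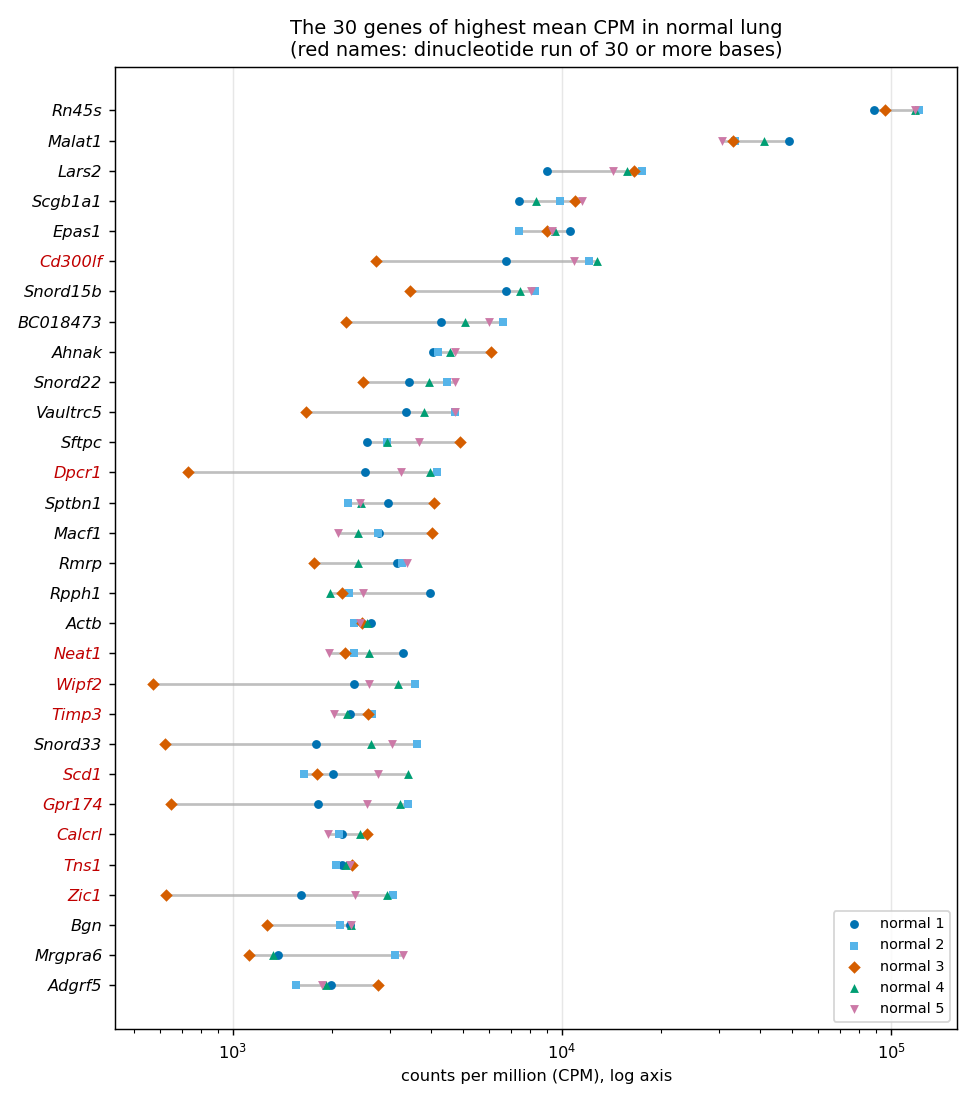
CPM of the 30 genes with the highest mean in the 5 normal lung libraries, on a log axis, with 1 point per library and the genes in order of their mean. Genes whose names are in red hold a repeat run of C and T or G and A of at least 30 bases; Cd300lf, Dpcr1, Wipf2, Gpr174 and Zic1 show 1 point far to the left, which is normal 3, while Actb and Tns1 show 5 points close together.

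Several of these 30 genes are not known as abundant lung transcripts. Cd300lf, an inhibitory receptor of myeloid cells (chr11:115116214-115133992), was sixth by CPM at 6758, 12058, 2724, 12762 and 10904. Dpcr1, a mucin-like gene that GENCODE names Mucl3 (chr17:35635752-35643695), was at 2524, 4166, 729.6, 3982 and 3255 CPM. In both, normal 3 was far below the other 4 libraries. Wipf2, an actin regulator, was at 2333, 3572, 574, 3186 and 2595 CPM. Gpr174, a lysophospholipid receptor of lymphocytes, was at 1813, 3396, 649, 3218 and 2553 CPM. Zic1, a transcription factor of the developing brain, was at 1612, 3057, 626, 2931 and 2354 CPM. In all 5 genes normal 3 was the lowest library, at less than 0.5 times the mean of the others, and normal 2 or normal 4 was the highest. Each of the 5 carries in an annotated transcript a long perfect repeat of G and A. Sequences around the start of the run are shown for these genes, for Six2, a kidney and skeletal transcription factor with the same pattern at a lower level, and for Timp3, Scd1 and Calcrl, genes with such a run that were not low in normal 3. They are 30 bases of the annotated transcript strand from GENCODE M21 (GRCm38), 5′ to 3′, with the first bases of the run in capitals.
Cd300lf: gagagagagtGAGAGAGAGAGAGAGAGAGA
Dpcr1: cttctgcctgGAGAGAGAGAGAGAGAGAGA
Wipf2: gggcggcggcGAGAGAGAGAGAGAGAGAGA
Gpr174: gagagagaggGAGAGAGAGAGAGAGAGAGA
Zic1: agagagagaaGAGAGAGAGAGAGAGAGAGA
Six2: attctcatttCTCTCTCTCTCTCTCTCTCT
Timp3: gttaccagttGAGAGAGAGAGAGAGAGAGA
Scd1: aaagatggaaGAGAGAGAGAGAGAGAGAGA
Calcrl: accttgtcagCTCTCTCTCTCTCTCTCTCT
The whole run is 52 bases in Cd300lf (3′ UTR), 71 in Dpcr1 (3′ UTR), 67 in Wipf2 (5′ UTR), 59 in Gpr174 (5′ UTR), 39 in Zic1 (5′ UTR), 69 in Six2 (3′ UTR), 50 in Timp3, 39 in Scd1 and 41 in Calcrl (all 3 in the 3′ UTR). Of the 30 genes with the most reads, 10 hold a run of at least 30 bases, against 5.75% of the 7078 genes at 20 CPM or more with a known run length. Of these 10, 5 were below 0.5 times the other libraries in normal 3, where 9.44% of the 7107 genes at 20 CPM or more were. Timp3, an inhibitor of matrix metalloproteases, was at 2267, 2654, 2582, 2229 and 2029 CPM. Tns1, a focal adhesion protein with a run of 68 bases in a non-coding transcript, was at 2152, 2057, 2296, 2209.6 and 2278 CPM. A run of this length did not always go with a low value in normal 3. Another 5 of the 30 genes, Snord15b, the snoRNA host BC018473, Vaultrc5, Snord33 and the sensory neuron receptor Mrgpra6, were under 0.5 times the other libraries in normal 3 with no such run.

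Per kb of transcript, small nucleolar RNAs and other short structural RNAs stood at the top. Rn45s, first by CPM, had no matched transcript length and is not in this ranking. Of the 20 genes with the highest CPM per kb, 17 were not protein-coding, led by Snord15b, Snord22, Snord33 and the vault RNA Vaultrc5, and the 3 protein-coding ones were Scgb1a1 at 20179.7 ± 3637 CPM per kb, Sftpc at 4305 ± 1184 and Lars2 at 3747 ± 858. The next protein-coding genes were Cd300lf at 2301, Mrgpra6 at 1876, the ferritin light chain gene Ftl1 at 1839 and Epas1 at 1666. They were followed by the club cell carbonyl reductase Cbr2 at 1469 and Actb at 1296. Surfactant protein B (Sftpb) was at 788 and lysozyme 1 (Lyz1) at 775. As a family, 119 small nucleolar RNA genes took 2.02, 2.98, 1.08, 2.40 and 2.79% of the counts, lowest in normal 3. The 88 genes of the Rpl and Rps series took 1.11 ± 0.128%. Length matters for this order: with the coding length in its place, 3 of the 20 genes stayed on the list, because most of the 20 have no coding part.

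Genes listed for 6 compartments of the lung, 500 in all, held 9.75 ± 0.638% of the counts. Alveolar epithelium took 2.77, 2.91, 3.52, 3.11 and 3.03% over 53 genes, and vascular genes took 2.68, 2.23, 2.78, 2.58 and 2.40% over 75 genes. Airway epithelium took 1.59, 1.81, 2.07, 1.65 and 2.13% over 95 genes, mesenchyme 0.849, 0.904, 0.884, 0.917 and 0.857% over 41, immune cells 0.982, 0.75, 0.772, 0.743 and 0.709% over 156, and muscle 0.552, 0.517, 0.769, 0.566 and 0.719% over 80. Immune genes were highest in normal 1, muscle genes in normal 3 and normal 5, and the mesenchymal share varied by only 0.0292 percentage points (SD). The shares depend on the lists and on transcript length: with counts divided by length, airway genes came first at 4.99% and vascular genes came to 1.21%. The total for these length-divided shares leaves out genes with no matched length, Rn45s among them. The short gene Scgb1a1 alone held 20179.7 of the 24266.5 CPM per kb of the club list.

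**Figure D2:**
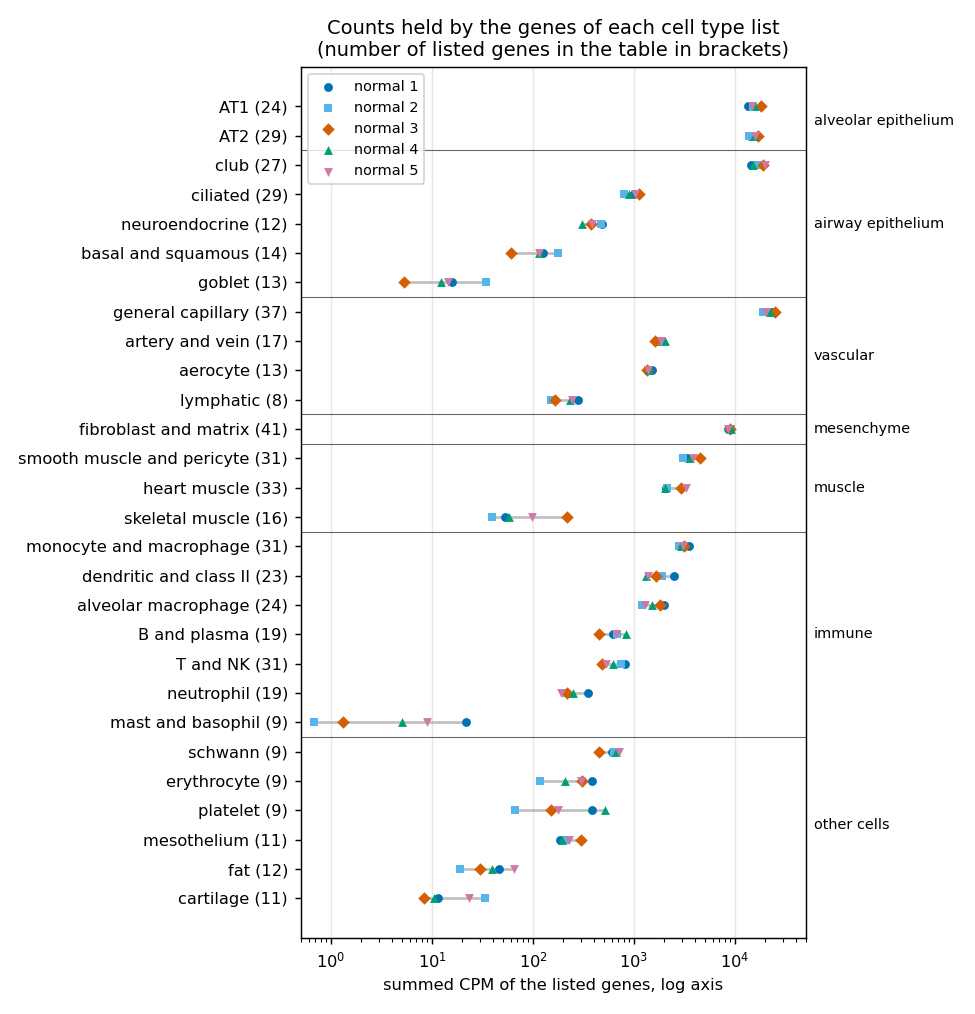
Summed CPM of each cell-type gene list in the 5 normal lung libraries, on a log axis, grouped by compartment, with 1 point per library. General capillary, club, type 1 and type 2 lists hold the highest sums, from 13556 to 24712 CPM, and goblet, mast cell, fat and cartilage lists lie below 100 CPM in every library.

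Alveolar type 1 and type 2 lists held similar sums of CPM, but per kb of transcript the type 1 genes summed to 2995 CPM per kb and the type 2 genes to 8793. The 24 type 1 genes summed to 13556, 15181, 18082, 15608 and 14691 CPM, of which Ahnak gave 30.7%, and all 24 had a mean of at least 20 CPM. Emp2, a tetraspan membrane protein, was at 1483, 1803, 1707, 2018 and 1643 CPM. Vegfa, the endothelial growth factor that type 1 cells supply to capillaries, was at 1002, 1146, 1210.3, 810.5 and 989 CPM. Neither showed a library apart from the rest. Lmo7, an adherens junction protein, was at 379, 399, 835, 431 and 353 CPM. It was high in normal 3, with the other 4 libraries at 431 CPM or less. Hopx, a homeodomain protein of type 1 cells, was at 183, 309.6, 322, 282 and 249.7 CPM and lowest in normal 1. The 29 type 2 genes summed to 14170.4, 13914, 17089, 15504 and 15654 CPM, of which Sftpc gave 22.3%. Sftpb, which is needed to form the surfactant film, was at 989.7, 1496, 1324, 999 and 1293 CPM. Sftpa1, a collectin of surfactant, was at 1606, 1345, 1666, 1259 and 1386 CPM. Lyz1 was at 1125, 982, 918, 959.8 and 907 CPM. Lyz1 and Lyz2 are near-identical, so reads could be split between them. Abca3, which loads surfactant lipid into lamellar bodies, was at 496, 412, 438, 427 and 386 CPM, a mean of 432 ± 41. Scd1, a fatty acid desaturase, was higher in normal 4 and normal 5, at 2011, 1644, 1807, 3405 and 2765 CPM. Nkx2-1, the lung lineage transcription factor, was lowest in normal 3, at 283, 359, 122, 449 and 316 CPM, and holds no C and T or G and A run of 30 bases. Surfactant genes did not move as 1 block, since Sftpc and Sftpb differed in which library was highest.

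Airway genes were mostly those of club cells. The club list summed to 14313, 16667, 19134, 15169 and 19719 CPM, and Scgb1a1 gave 56.5% of it. Sec14l3, a lipid-binding protein, was at 1991, 1719.8, 2001, 1955 and 1795 CPM, a mean of 1892 ± 127, with no library apart. Cbr2 was at 1589.6, 1733, 1454, 1479 and 1900.3 CPM. Cyp2f2, the cytochrome that activates naphthalene in club cells, was at 1072, 1171, 1288, 1253 and 1577 CPM. These 3 club cell genes ranged less widely than the ones that follow. Scgb3a2, a secretoglobin of club cells, was at 148, 191, 165, 208 and 369.8 CPM and was highest in normal 5. Scgb3a1, a secretoglobin of the larger airways, was at 24.7, 0, 10.3, 8.87 and 83 CPM. Bpifa1, an antimicrobial protein of the larger airways, was at 1.07, 2.73, 0, 2.31 and 52.8 CPM. Normal 5 was again the highest in both, and Scgb3a1 had no count in normal 2 and Bpifa1 none in normal 3. Muc5b, the main airway mucin, was at 181, 38.3, 50.2, 52.8 and 179.7 CPM, high in normal 1 and normal 5 and lower in the others. Scgb1a1 itself was at a like level in normal 3 and normal 5. Aldh1a1, which oxidises retinal, was highest in normal 3 at 409, 344, 983, 491 and 689 CPM.

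Ciliated cell genes were present at lower levels. Their list summed to 1012, 798, 1116, 896 and 1027 CPM. Tppp3, a tubulin-binding protein of cilia, was at 80.2, 79.98, 137, 109 and 94.7 CPM. Tubb4b, a ciliary tubulin, was at 73, 54.7, 157, 119.97 and 119 CPM. Both were highest in normal 3. Goblet cell genes summed to 15.7, 34.2, 5.28, 12.3 and 14.4 CPM and none of the 13 reached a mean of 20 CPM, with Tff1, Tff3 and Bpifa2 at 0 in all libraries. Basal and squamous keratins were also near the floor: Krt5 was at 0, 1.37, 0.880, 0.772 and 5.49 CPM, and Krt6a, Krt13 and Dsg3 had no count. The list averaged 119 CPM, mostly from a pair of genes that other cells make too. Aqp3, a water channel, was at 57.3, 97.1, 24.2, 50.9 and 43.2 CPM. Ngfr, a neurotrophin receptor, was at 51.2, 61.5, 20.5, 57.1 and 39.1 CPM. Both were lowest in normal 3, and without genes that hold a C and T or G and A run the list came to 18.3 CPM. The neuroendocrine list summed to 401 ± 73.7 CPM, of which Cplx2, a synaptic vesicle protein, gave 86.8%, while Calca, Chga and Grp each had means under 2 CPM.

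Vascular genes were led by capillary endothelium. The 37 general capillary genes summed to 23217, 18979, 24712, 22106 and 20483 CPM, and Epas1 gave 42%. Cdh5, the endothelial cadherin, was at 884, 596, 1011, 705 and 638 CPM. Cd36, a fatty acid receptor, was at 578, 599, 758, 609.9 and 742 CPM. Both were highest in normal 3, but Cd36 was at nearly the same level in normal 5. Aerocyte genes, which mark the second kind of alveolar capillary cell, summed to 1402 ± 74.5 CPM. Ednrb, an endothelin receptor, was at 211, 224, 129, 284 and 349.9 CPM. Car4, a carbonic anhydrase, was at 71.6, 55.4, 97.7, 125 and 129.7 CPM. Both of these were highest in normal 5. Among artery and vein genes Mgp, an inhibitor of calcification, was at 210.1, 154, 114, 147 and 153 CPM. Vwf, the clotting factor carrier, was at 432, 515, 374, 522 and 425 CPM. Efnb2, an arterial ephrin, was at 299, 307, 304, 330.2 and 344 CPM. Efnb2 stayed within a narrow range. Lymphatic genes were low. Flt4, the lymphatic growth factor receptor, was at 87.7, 68.4, 70.7, 98.8 and 73.4 CPM. Prox1, which sets lymphatic identity, was at 15, 2.05, 4.84, 19.3 and 18.5 CPM, and the lymphatic chemokine Ccl21a was at 0 throughout. Lyve1, a hyaluronan receptor of lymphatic and lung capillary endothelium and of some macrophages, was far higher in normal 3, at 247, 449, 1046, 320.2 and 253 CPM.

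Fibroblast and matrix genes gave the steadiest sum of the cell-type lists. Their sum was 8494, 9041, 8837, 9172 and 8571 CPM, a coefficient of variation of 3.31%. Inmt, a methyltransferase of lung fibroblasts, was at 438, 598, 553, 419.7 and 476 CPM. Sparc, a collagen-binding protein, was at 855, 875, 1059, 986 and 869.9 CPM. It was highest in normal 3, where Bgn, which gave 23.2% of the sum, was lowest. A steady sum therefore does not mean steady members. Fgf10, the mesenchymal growth factor of lung branching, was low in normal 3 at 143, 279.6, 59.6, 344 and 246 CPM and holds a run of 73 bases in its 3′ UTR.

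Muscle genes included those of smooth muscle and of heart muscle. Smooth muscle and pericyte genes summed to 3367, 3031, 4542, 3558 and 3809 CPM. Flna, an actin cross-linker, was at 676, 546, 863, 753 and 868 CPM. Tpm1, tropomyosin, was at 164, 137, 259, 148 and 309 CPM. Acta2, smooth muscle actin, was at 109, 122, 233, 76.8 and 147 CPM. All 3 were above the other libraries in normal 3 and normal 5. Heart muscle genes summed to 2097, 2102, 2929, 2049 and 3285 CPM, and in mice cardiac muscle is known to extend along the pulmonary veins into the lung. Actc1, cardiac actin, was at 124, 84.8, 223, 88.7 and 200.3 CPM. Myh6, the main myosin of the adult mouse heart, was at 208, 159, 408, 127 and 283 CPM. Ttn, the giant sarcomere protein, was at 531, 405, 1084, 439 and 882 CPM. Those 3 genes were highest in normal 3 and next in normal 5, and normal 1, normal 2 and normal 4 lay below both. Tnnt2, cardiac troponin T, was highest in normal 5 at 23.6, 64.3, 92, 74.8 and 189 CPM, and holds a run of 61 bases in a non-coding transcript. Ryr2, the cardiac calcium release channel, was lowest in normal 3, at 321, 589, 123, 645 and 467 CPM, and holds a run of 51 bases in its 3′ UTR. Nppa, the atrial hormone, stayed at 0, 0, 1.91, 0 and 0.686 CPM. Skeletal muscle genes were low, with the highest sum in normal 3 at 53.3, 39.6, 218, 57.5 and 96.7 CPM. Myh7, a myosin of slow skeletal and of heart muscle, was at 46.2, 23.2, 96.8, 25.1 and 22.6 CPM. Acta1, skeletal actin, was at 0.716, 4.78, 30.1, 0 and 4.80 CPM. Myh1, a fast skeletal myosin, was at 0, 1.37, 24.9, 0 and 0.686 CPM. Normal 3 was the highest library in each.

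Immune genes as a whole took their highest share in normal 1. The class II and dendritic list summed to 2498, 1909, 1659.7, 1315 and 1366 CPM. Cd74, the class II invariant chain, was at 1199, 962, 896, 603 and 614 CPM. H2-Ab1, a class II beta chain, was at 453, 332, 233, 189 and 196 CPM. Both were highest in normal 1 and next highest in normal 2. B2m, the light chain of class I molecules, had a like order at 869, 641, 621, 405 and 380.1 CPM. Monocyte and macrophage genes summed to 3522, 2759, 3109.7, 2897 and 3045 CPM. Lyz2, the lysozyme of myeloid cells, was at 1005, 711, 881, 749.9 and 863 CPM. Ace, which capillary endothelium makes as well, gave 32.0% of the monocyte and macrophage sum. It was at 952, 886, 1086, 961 and 1018 CPM and steady. Alveolar macrophage genes varied more. The chemokine Ccl6 was at 268, 71.8, 225, 166 and 125 CPM. The chitinase-like protein Chil3 was at 302, 100.5, 137, 182 and 113 CPM. The tetraspanin Cd9 was at 309.6, 172, 251, 297 and 204 CPM. Normal 1 had the most of each and normal 2 the least.

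Lymphocyte genes were at low levels. The T and NK cell genes summed to 821, 738, 482, 615 and 526 CPM. Cd3d, a subunit of the T cell receptor complex, was at 78.7, 117, 53.2, 87.2 and 64.5 CPM and highest in normal 2. It holds a C and T or G and A run of 42 bases in its 3′ UTR. Cd3e, another subunit, was at 90.6, 44.4, 30.1, 37.4 and 78.2 CPM and highest in normal 1. The B and plasma cell list summed to 613, 673, 447, 842 and 667 CPM, but 49.9% came from Cd22, a B cell lectin with a run of 46 bases in its 5′ UTR, at 249, 442, 108, 424 and 394 CPM. Cd79a, a defining B cell receptor subunit, was at 26.1, 0, 4.99, 43.2 and 10.3 CPM, with none in normal 2. Neutrophil genes summed to 348, 206, 219, 251 and 187 CPM. S100a9, a calcium-binding protein of neutrophils, was at 35.4, 33.5, 20.8, 17.4 and 2.06 CPM. Lcn2, a siderophore-binding protein, was at 59.4, 14.4, 24.5, 31.2 and 49.4 CPM. Both were highest in normal 1. Mast cell genes summed to 7.55 ± 8.64 CPM, and Mcpt8 and Fcer1a had no count.

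Platelet genes varied widely between libraries. They summed to 381, 66.3, 150.4, 515 and 178 CPM. Ppbp, a platelet chemokine, was at 89.8, 2.73, 31.4, 158 and 48 CPM. Nrgn, a calmodulin-binding protein found in platelets and neurons, was at 146, 10.9, 42, 210.2 and 32.2 CPM. Pf4, a second platelet chemokine, was at 35.4, 17.8, 15.8, 89.9 and 4.12 CPM. Normal 4 was the highest in all 3, and normal 1 the next. Erythroid genes did not follow the same order, since Alas2, the erythroid haem synthesis enzyme, was at 229, 51.9, 94, 109 and 171 CPM and highest in normal 1. Hba-a1, an alpha globin, had 322 counts in normal 3 (47.2 CPM) and 0 in the other 4 libraries, where a limit set at 3 counts is 1.07, 2.05, 1.16 and 2.06 CPM. Its near-identical copy Hba-a2 was at 1.79, 0, 0, 8.87 and 0 CPM, so that the reads of both genes could have been divided between them, and the beta globin Hbb-bs was at 19, 10.9, 10.9, 8.87 and 25.4.

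Nearly every gene varied more between the libraries than counting alone allows. Of 12536 genes with an expected count of at least 5 in each library, 12093 (96.5%) exceeded counting noise at an adjusted p under 0.05 (Pearson chi-square of a Poisson model, Benjamini-Hochberg). Among the few that did not was Jup, the junction protein plakoglobin, at 346, 329, 348, 321 and 348 CPM, with an adjusted p of 0.596 in that test. Since animals are not named, these p-values measure the spread between libraries, which may be technical. The biological coefficient of variation (BCV), the relative SD that remains once counting error is taken off, was 0.416 in common for 8717 genes by edgeR.

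Spread was smaller at higher levels. The median BCV was 0.504 for 1737 genes below 20 CPM, 0.438 for 5100 genes at 20 to 100 CPM, 0.300 for 1822 genes at 100 to 1000 CPM and 0.297 for 58 genes above. edgeR pulls each gene towards the trend for its level, and a moment estimate that shares nothing between genes gave medians of 0.466, 0.377, 0.245 and 0.190. By the edgeR estimate, type 1 genes (median 0.291, moment 0.220) and general capillary genes (0.294, 0.218) were close to their trends of 0.304 and 0.301. By the same estimate, club genes (0.319 against 0.313) and fibroblast genes (0.316 against 0.314) were close too. Their moment medians were 0.370 and 0.299, so that of club genes lay above its trend. Heart muscle genes, 13 of them fitted, had a median of 0.482 (moment 0.465) where the trend for their levels was 0.340. Platelet genes, with 4 fitted, were at 0.502 (moment 0.535) against 0.451. T and NK cell genes, with 9 fitted, lay at 0.462 (moment 0.405) against 0.393. These medians rest on few genes. Among all genes fitted, the median was 0.439 (moment 0.359) and that of the trend 0.435.

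**Figure D3:**
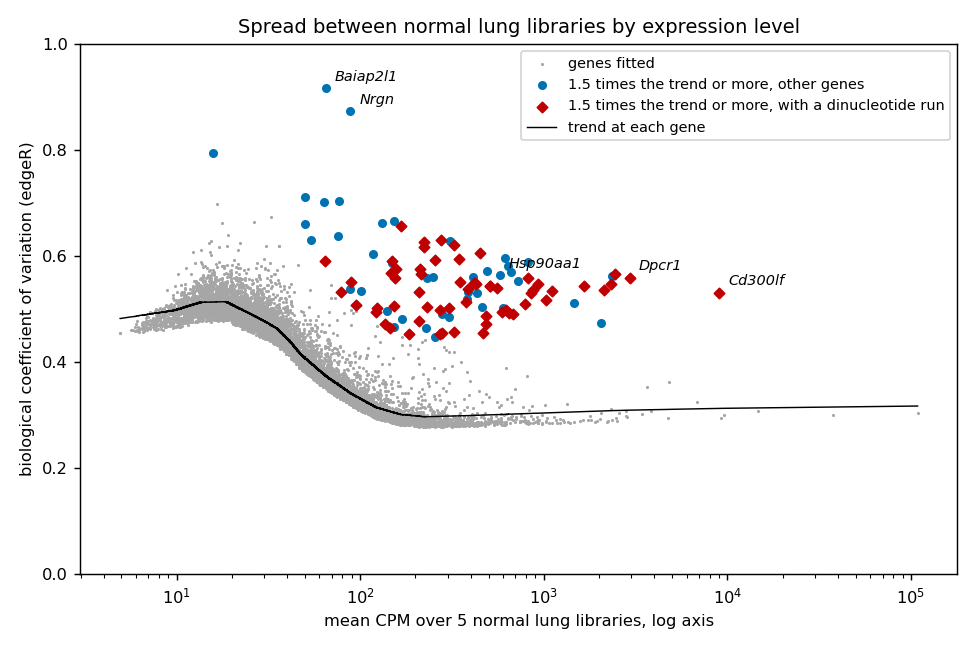
edgeR BCV of each of the fitted genes on a linear axis against mean CPM in the normal lung libraries on a log axis, with the trend as a line. Genes at 1.5 times the trend or more are marked. Red diamonds hold a C and T or G and A run of at least 30 bases, and blue circles do not. The 102 marked genes lie above the cloud. No gene lies as far below the line, for which the pull of edgeR towards the trend leaves little room.

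Only 102 of 8717 genes (1.17%) had a BCV of at least 1.5 times the trend. None (0%) lay at the trend divided by 1.5 or below, but the pull towards the trend leaves little room for that. Jup, with a moment estimate of 0, still had a BCV of 0.278 against a trend of 0.298. Of the 102, 84 were lowest in normal 3, where 15.9% of the 7107 genes at 20 CPM or more were, and 8 were highest there, against 27.9%. A C and T or G and A run of at least 30 bases was present in 61 of the 100 with a known run length, all 61 lowest in normal 3, and in 5.13% of the 8672 fitted genes with a known run length. Small nucleolar RNAs made up 9 of the 102 (8.82%), again all lowest in normal 3, and 0.688% of the fitted genes. The count rested on that library: without normal 3 it was 5, and without normal 4 it was 66. Without robust estimation it was 2. Of the 102, 7 (6.86%) were on a cell type or programme list, as were 5.59% of the 8717 fitted genes, namely Nrgn, Fgf10, Hsp90aa1, Ryr2, Muc5b, Lyve1 and Cd22.

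Of genes at 20 CPM or more the widest spread was that of Baiap2l1, an actin and membrane-curving adaptor, at 30.1, 19.8, 37.3, 16.6 and 220.2 CPM, with a BCV of 0.92 and a moment estimate of 1.34. Normal 5 alone was high, and without it the BCV was 0.45. Nrgn followed with a BCV of 0.87. Rprl2, an RNase P RNA-like gene, was at 150.3, 18.5, 48.8, 13.9 and 18.5 CPM, high in normal 1 alone. Usp33, a deubiquitinase, was at 119.9, 11.6, 111, 117 and 23.3 CPM. Stx17, the syntaxin of autophagosome fusion, was at 59.8, 4.10, 78.8, 63.3 and 113 CPM. Both were lowest in normal 2. Zbtb16, a zinc finger transcription factor induced by glucocorticoids, was at 124, 35.5, 170.3, 22 and 27.4 CPM, high in normal 1 and normal 3. Rbm41, an RNA-binding protein, was high in normal 2 alone, at 19.3, 83.4, 12.3, 10.8 and 6.17 CPM. Ssr4, a translocon-associated protein, was high in normal 5, at 31.1, 8.89, 12.8, 24.7 and 104 CPM. Of the 20 widest genes, 4 hold a run of at least 30 bases (Scrt2, Gpr149, Six2 and Rimbp2) and 7 were lowest in normal 3.

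The 20 genes with the smallest edgeR BCV were at means of 210.2 to 338 CPM. They hold no such run, as against 5.75% of the 7078 genes at 20 CPM or more with a known run length. With so small a share, its absence among 20 genes sets them apart little. Their order is set largely by the pull towards the trend: their BCV was 0.28 in each, their moment estimates ran up to 0.127, and 418 of the 6980 fitted genes at 20 CPM or more had a moment estimate no larger than that. Slc9a3r2, a scaffold of ion exchangers, was at 284, 249, 279, 268 and 292 CPM. Zmiz1, a transcriptional coregulator, was at 352, 303, 327, 292 and 303 CPM. Their moment estimates were 0.04 and 0.03. S1pr1, the endothelial sphingosine phosphate receptor, was also among them, at 229, 217, 277, 258 and 254 CPM. Nckap5, a member of the aerocyte list, was at 248, 202, 262, 187 and 213 CPM.

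Genes with long C and T or G and A runs were low in normal 3 as a class. Among genes at 20 CPM or more on average, the level in normal 3 relative to the mean of the other 4 libraries had a median of 1.1 for 5647 genes with a longest run under 10 bases and 1.09 for 880 genes with 10 to 19 bases. It was 1.05 for 144 genes with 20 to 29, 0.884 for 107 with 30 to 39, 0.453 for 238 with 40 to 59, and 0.348 for 62 with at least 60. Under 0.5 times the other libraries were 192 of 407 genes with a run of at least 30 bases (47.2%), against 9.44% of all 7107 genes. Runs of C and A or G and T, which pair 1 purine with 1 pyrimidine in each strand, showed no such fall: 860 genes with at least 30 bases had a median of 1.03, and 12.2% were under 0.5. The run classes were drawn up after the pattern had been seen, so the counts describe these libraries and carry no test.

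**Figure D4:**
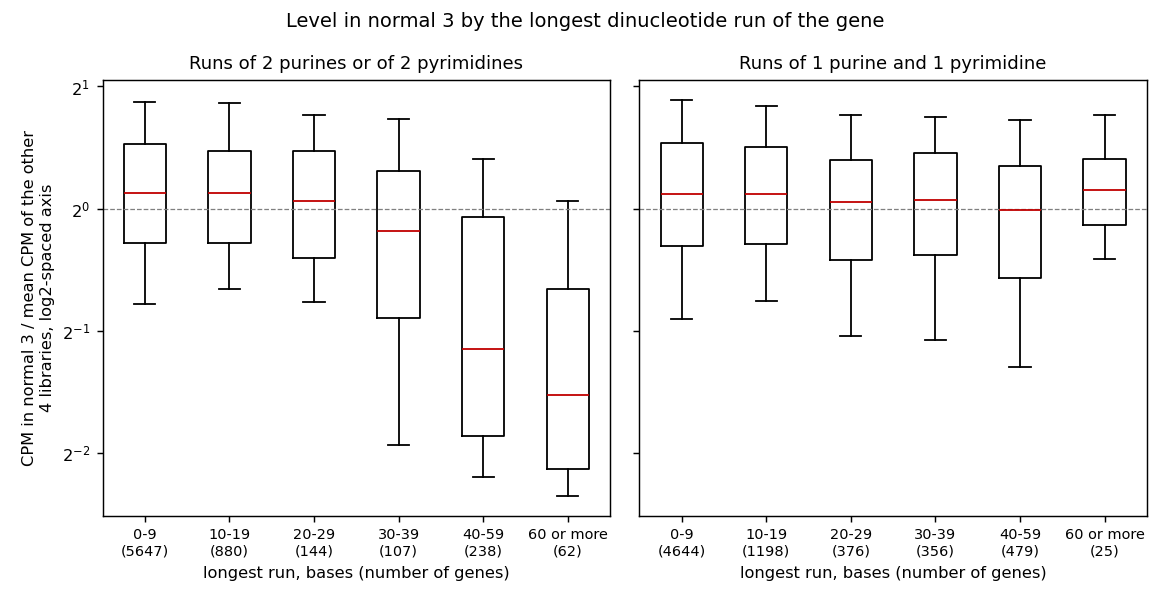
Level in normal 3 divided by the mean of the other 4 normal lung libraries, for genes of at least 20 CPM grouped by their longest run, with runs of C and T or G and A on the left and runs of C and A or G and T on the right. Boxes show the median and quartiles and whiskers the 10th to 90th percentile; on the left the median falls from 1.1 to 0.348, and on the right it stays between 0.995 and 1.11.

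Together the 407 genes at 20 CPM or more with a C and T or G and A run of at least 30 bases took 9.30, 12.0, 5.95, 12.2 and 10.7% of the counts. The 730 genes at 20 CPM or more with a C and A or G and T run of that length and none of C and T or G and A took 9.27, 8.25, 9.07, 8.55 and 8.54%. At any level, 728 genes held a C and T or G and A run of at least 30 bases. Their longest run lay in a 3′ UTR in 428, in a non-coding transcript in 221, in a 5′ UTR in 76 and in a coding part in 3. Normal 3 was also the library with the most counts, and the part of depth in this pattern was not tested. Whether the authors counted reads with more than 1 match is not stated in any label or header. Where a list member holds a run, a low value in normal 3 stands beside this class-wide difference, as for Ryr2, Fgf10 and Cd22.

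Heat shock genes as a list were highest in normal 3. The list summed to 1653, 1512, 4583, 1802 and 2036 CPM, and of its 9 members with a mean of at least 20 CPM, 6 were over 2 times the mean of the other libraries in normal 3, where 6.39% of the 7107 genes were. Hspa8, the constitutive cytosolic chaperone, was at 766, 748, 1882, 724 and 960.5 CPM. Hsp90aa1, the inducible cytosolic chaperone (chr12:110690605-110702728), was at 357, 285, 1454, 356 and 429 CPM, with a BCV of 0.56. Normal 3 stood apart from the other 4 in both. The endoplasmic reticulum chaperone Hspa5 was at 214, 187, 549, 253 and 272 CPM. Dnaja1, a co-chaperone, was at 88.1, 58.8, 204, 113 and 108 CPM. Hsph1, a nucleotide exchange factor, was at 51.2, 24.6, 108, 63.3 and 75.5 CPM. In all 3 normal 3 was the highest library. The small heat shock protein Hspb1 was at 13.2, 35.5, 119, 18.9 and 23.3 CPM. The other 3 members at 20 CPM or more were not over 2 times the others in normal 3. Hspd1, the mitochondrial chaperonin, was at 48.3, 88.2, 85.8, 41.3 and 71.3 CPM. Dnajb1, a co-chaperone, was at 19, 17.1, 38.7, 67.9 and 24 CPM and highest in normal 4. Bag3, an exchange factor of selective autophagy, was at 50.8, 55.4, 71.3, 105 and 43.9 CPM and also highest in normal 4. Outside the list, 3 chaperone genes were chosen after their values were seen. Hsp90ab1, the constitutive cytosolic form, was at 537, 327, 1781, 513 and 449 CPM. Hsp90b1, the form of the endoplasmic reticulum, was at 541, 323, 1397, 342 and 399.96 CPM. Calr, the lectin chaperone calreticulin, was at 319, 285, 843, 292 and 245 CPM. All 3 had their highest value in normal 3 with a wide gap to the next.

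Heat shock factor binds inverted repeats of the letters GAA, and the promoters of Dnaja1 and Hsph1 are shown because both genes were highest in normal 3 and each holds GAANNTTC, which reads the same on both strands. Capitals mark that match in 300 bases from RefSeq (GRCm38.p6), 250 before to 50 after the annotated start, given 5′ to 3′ on the strand of the gene: chr4:40722218-40722517, plus strand, for Dnaja1 and chr5:149636287-149636586, minus strand, for Hsph1.
Dnaja1: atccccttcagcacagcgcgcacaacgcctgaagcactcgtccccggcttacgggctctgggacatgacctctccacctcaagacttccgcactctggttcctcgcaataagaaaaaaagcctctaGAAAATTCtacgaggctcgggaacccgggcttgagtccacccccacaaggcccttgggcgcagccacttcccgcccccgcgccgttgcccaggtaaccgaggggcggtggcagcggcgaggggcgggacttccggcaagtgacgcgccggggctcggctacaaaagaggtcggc
Hsph1: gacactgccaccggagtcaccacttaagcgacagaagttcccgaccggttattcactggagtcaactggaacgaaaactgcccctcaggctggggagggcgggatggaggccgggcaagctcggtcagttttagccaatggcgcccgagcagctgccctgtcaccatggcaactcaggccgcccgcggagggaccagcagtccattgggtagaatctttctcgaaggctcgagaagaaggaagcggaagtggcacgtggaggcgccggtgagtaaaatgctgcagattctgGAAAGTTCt
GAANNTTC was found in 7 of the 10 list promoters that RefSeq supplied, including Hspb1, and not in those of Hspd1, Hspa5 and Dnajb1. It was found in 2149 of 27025 promoters of the same length (7.95%). RefSeq supplied no promoter for Hsp90aa1 and Hspa8. The list was of heat shock genes and was not chosen by normal 3, so its share does not bear on that library. Of the genes described above with a match, Dnaja1, Hsph1 and Hspb1 were highest in normal 3 and Bag3 was not. Of those without, Hspa5 was highest there, and Hspd1 and Dnajb1 were not. Whether a match went with a high value in normal 3 was not tested. A match is a string of letters and no measure of binding.

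Clock genes differed between the libraries in opposite directions. Arntl, the activator of the circadian loop, was at 5.73, 4.10, 23.3, 33.2 and 22 CPM, low in normal 1 and normal 2. Its repressor Nr1d2 was at 109, 105, 72.2, 35.9 and 26.8 CPM. Per3, a member of the period family, was at 95.6, 88.2, 29, 60.6 and 54.9 CPM. The output gene Dbp was at 32.2, 38.3, 15.3, 27.8 and 4.80 CPM. Tef, a relative of Dbp, was at 162, 165, 100.04, 98.4 and 71.3 CPM. Nr1d2, Per3, Dbp and Tef were each highest in normal 1 and normal 2. Arntl, Nr1d2, Per3 and Dbp were chosen after their values were seen. Nr1d1, the close relative of Nr1d2, was high in normal 2 alone, at 70.5, 245, 80.1, 71.8 and 74.1 CPM. Clock, the partner of Arntl, was highest in normal 1, at 242, 147, 163, 147 and 178 CPM. The labels used here give no time of day for the samples.

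Normal 1 and normal 2 were also apart from the others in Xist, the RNA that silences an X chromosome in females (chrX:103460366-103483254). Xist had 4735 and 1851 counts in normal 1 and normal 2 (1695 and 1265 CPM) and 4, 23 and 4 in the others (0.587, 8.87 and 2.74 CPM). Ddx3y, a Y-linked RNA helicase, had 1 and 0 counts in normal 1 and normal 2 and 646, 286 and 47 in the others, which is 0.358, 0, 94.8, 110.3 and 32.2 CPM. Uty, Kdm5d and Eif2s3y, also Y-linked, had 0 counts in normal 1 and normal 2. The 5 libraries thus fell into a pair with Xist and 3 with Y-linked RNA, and in normal 4 a small Xist count stood beside the Y-linked genes. The pair with Xist was also the pair highest in Nr1d2, Per3, Dbp, Tef, Cd74 and H2-Ab1, and with 5 libraries the sex of the animals and these levels cannot be told apart. These genes are gathered here for that order, and the share of all genes that have it was not counted. Among the clock genes above, Nr1d1 and Clock did not share the order, and Arntl was lowest in that pair.

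The interferon-response list summed to 555, 394, 419.8, 274 and 249.7 CPM, highest in normal 1, but its members did not share 1 order. Gbp2, a guanylate-binding protein, was at 127, 61.5, 59, 19.7 and 22 CPM. Normal 1 was the highest and normal 4 and normal 5 the lowest, as for Cd74, H2-Ab1 and B2m. Iigp1, another interferon-induced GTPase, was at 72.7, 17.1, 42.7, 10.4 and 1.37 CPM, lower in normal 2 than in normal 3. Oasl2, a relative of the oligoadenylate synthetases, was highest in normal 5, at 21.1, 10.9, 28.9, 33.6 and 38.4 CPM. It holds a C and T or G and A run of 35 bases in a non-coding transcript. Complement genes were highest in normal 3, where their list summed to 1998 CPM and C3, the central component, was at 591, 420.4, 1003, 524 and 506 CPM. Serping1, the C1 inhibitor, was steadier at 197, 243, 282, 235 and 234 CPM. Col4a1, a basement membrane collagen chosen after its values were seen, was highest in normal 3 as well, at 285, 347, 932, 491 and 375 CPM.

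**Figure D5:**
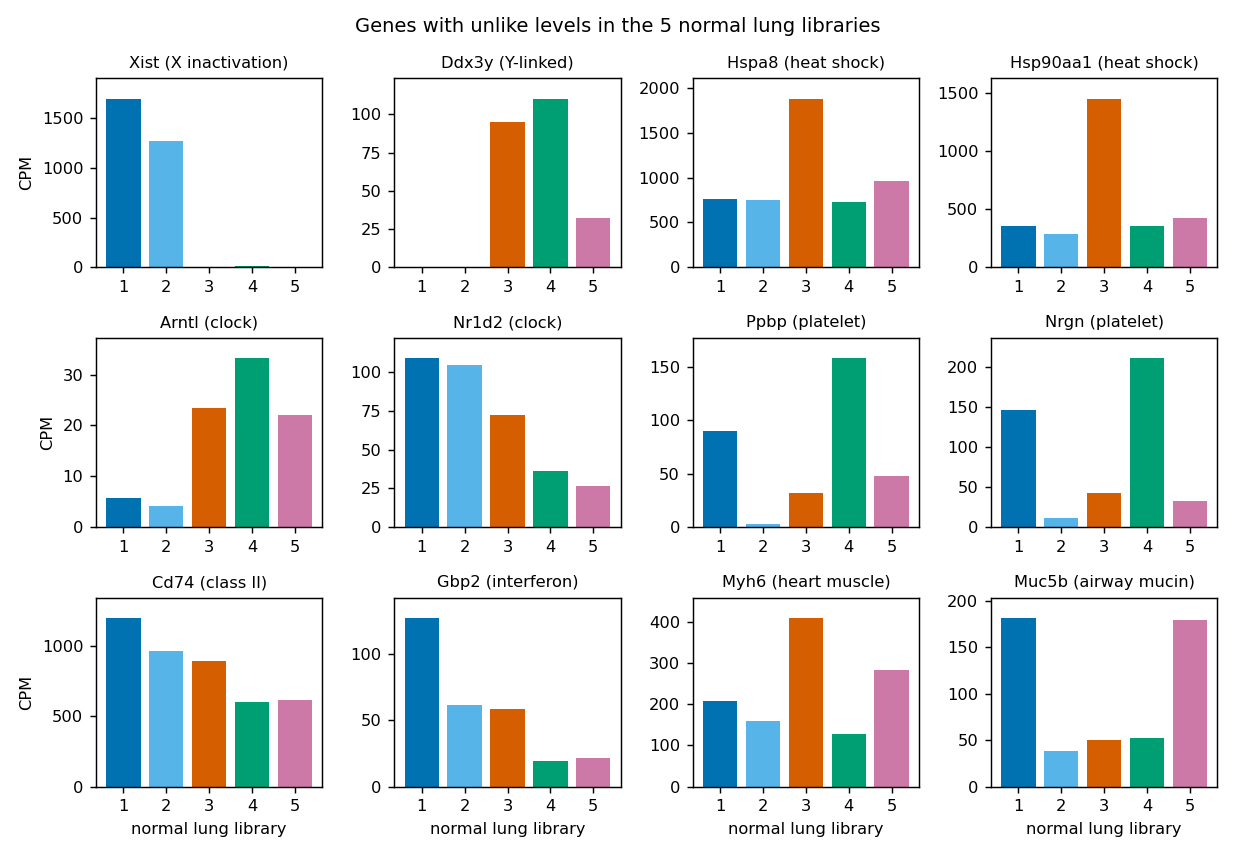
CPM in each of the 5 normal lung libraries for 12 genes that set libraries apart, 1 panel per gene, with bars starting at 0. Xist is high in normal 1 and normal 2 and Ddx3y in normal 3 to normal 5; Hspa8 and Hsp90aa1 are highest in normal 3; Ppbp and Nrgn in normal 4; Cd74 and Gbp2 in normal 1.

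Proliferation and metabolic lists had no library apart by Dixon's gap test. Cell cycle genes summed to 225, 163, 279, 202 and 231 CPM, with Mki67, a marker of dividing cells, at 47.2, 30.8, 59.7, 29.3 and 39.1. Cholesterol synthesis genes summed to 587 ± 71.2 CPM, oxidative phosphorylation genes to 1158 ± 236, and xenobiotic enzymes to 2002 ± 240.5, with Gstm1, a glutathione transferase, at 491, 453, 485, 569 and 652. Immediate early genes summed to 1637 ± 301 CPM and hypoxia and metallothionein genes to 241 ± 41.6. Housekeeping genes summed to 8577 ± 658 CPM. Markers of other tissues that a captured lung region could hold were low: mesothelial genes summed to 223 ± 44.4 CPM, fat genes to 39.8 ± 17.2 and cartilage genes to 17.4 ± 10.7, and Pmp22, a myelin protein that many cells make, gave 67.2% of the 609.97 ± 98 CPM of the Schwann cell list.

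Of 9478 genes that reached 20 CPM in some library, 561 (5.92%) had under 3 counts in another. Low values were most often in the shallow libraries: 261 of the 561 were under 3 counts in normal 2 and 244 in normal 5, against 59 in normal 1, 116 in normal 4 and 21 in normal 3. Only 1 library was low in 454 of them, and in 432 only 1 library reached 20 CPM. Among the 561 was Hlf, a clock output factor, at 46.9, 69.7, 23, 43.6 and 0.686 CPM, with its lowest value in normal 5. In 7 genes 4 libraries were under 3 counts, among them Sugct, a mitochondrial transferase, and Neurod4, a neural transcription factor, both present in normal 2 alone at 36.9 and 21.2 CPM. These values rest on 54 and 31 counts.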

How the data were processed

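Total RNA sequencing was analysed in the 5 libraries labelled normal lung. The authors deposited 1 table of raw read counts per gene symbol for all 10 libraries. Per the submitters' processing notes, the tools were HTSeq 0.6.1, TopHat2 2.0.1, cutadapt 1.9.1 and DESeq2, on the mm10 build, with no roles given. Annotation, strandedness and multiply matching reads are described in none of the labels or headers. For that reason near-identical, overlapping and antisense genes (Lyz1 and Lyz2, the alpha globins, Xist and its antisense partner, genes with processed pseudogenes such as Actb and Hspa8) are uncertain.

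CPM was computed from these deposited counts with each library's own total, and 95% Wilson intervals cover counting error only, since no molecular identifiers are mentioned. Transcript lengths and repeat runs came from GENCODE M21, which matched 24046 of 24421 symbols, 670 of them through an older symbol. A run is the longest perfect repeat of 2 bases in any annotated transcript of the gene. Counting noise was tested with a Poisson model scaled by TMM. BCV came from edgeR 4.0.16 (R 4.3.3) with an intercept only, robust, after its default filter on low counts. edgeR pulled BCV strongly to the trend (median prior degrees of freedom 26.6), so moment estimates are given beside it. DESeq2 1.42.0 size factors were an alternative. Scripts were tested on simulated data.

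The libraries, the 43 gene lists (819 of 846 genes were in the table) and all tests were chosen with earlier results of these data known. Named were the 5 markers, the 30 genes of highest CPM, the 20 of highest CPM per kb, the leading list members per kb, the 20 widest and 20 narrowest BCV, genes on or off between libraries, Xist and the Y-linked genes. Any other gene was chosen after its values were seen. Some genes are not reported here. Fits without genes that hold a C and T or G and A run were added after seeing the data.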

Additional observations from a re-analysis of the deposited data

Results flagged for a closer look

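Of 188 measurements over the 5 libraries, 27 had 1 library apart from the rest by the size of its gap in Dixon's test. Chance gives this in about 1 in 20 groups, but that rate is no comparison here, since many of the genes were named for their wide spread, for their absence from some libraries or after their values were seen. Normal 3 was that library for 15 of them. It was highest for the summed heat shock list at 4583 CPM and for the complement list at 1998 CPM. Among chaperones it was highest for Hspa8 at 1882 CPM, Hsp90aa1 at 1454, Hsp90ab1 at 1781, Hsp90b1 at 1397, Calr at 843, Hspa5 at 549 and Hspb1 at 119. It was also highest for the hyaluronan receptor Lyve1 at 1046 CPM and the junction protein Lmo7 at 835. Skeletal muscle genes Acta1, at 30.1 CPM, and Myh1, at 24.9, and the alpha globin Hba-a1, at 47.2, had their highest value there too. Bgn, the matrix proteoglycan, was lowest in normal 3 at 1273 CPM.

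Normal 5 stood apart as the highest library for the airway genes Bpifa1 at 52.8 CPM, Scgb3a2 at 369.8 and Krt5 at 5.49, and for Baiap2l1 at 220.2 and Ssr4 at 104. Normal 2 was highest for the clock repressor Nr1d1 at 245 CPM, Rbm41 at 83.4, Sugct at 36.9 and Neurod4 at 21.2. Normal 1 was highest for the share of immune genes at 0.982% and for Rprl2 at 150.3 CPM. Normal 4 was highest for Hba-a2 at 8.87 CPM, which rests on few reads. For Krt5, Neurod4, Sugct, Hba-a1 and Hba-a2 the other libraries were near or at 0. In no case was the cause tested.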

How the results depend on the processing

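The count of genes above counting noise stayed within 11353 and 14537 under total-count scaling, DESeq2 size factors, other filters, removal of structural RNA or run genes, and removal of each library. The common BCV stayed between 0.390 and 0.421 when each library was left out, and rose to 0.672 with no filter on low counts and 0.594 with 1 CPM in at least 3 libraries. The 102 genes above the trend became 2 without robust estimation and 44 without genes that hold a C and T or G and A run of 30 bases. With 1 library left out their number ranged from 5 (without normal 3) to 117 (without normal 5), and it was 66 without normal 4; the cause was not tested. Of the 20 widest genes, the BCV moved by over 1.5 times for 10 without normal 3, 3 without normal 2, 2 without normal 5 and 0 without normal 1 or normal 4.

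With structural RNA out of the denominator, the compartment shares were 3.63% for alveolar epithelium, 2.19% for airway, 2.99% for vascular, 1.04% for mesenchyme, 0.737% for muscle and 0.935% for immune genes. Without the gene of highest CPM they were 2.60% for alveolar (without Ahnak), 0.890% for airway (without Scgb1a1), 1.61% for vascular (without Epas1) and 0.678% for mesenchyme (without Bgn). Divided by length they were 2.40% for alveolar, 4.99% for airway, 1.21% for vascular, 0.629% for mesenchyme and 0.287% for muscle. That total leaves out genes with no matched length, Rn45s among them. Without run genes alveolar came to 2.78% and vascular to 2.17%. With coding length, 3 of the 20 genes of highest CPM per kb were shared. No paired analysis was possible because 1 group was described and the labels give no replicate numbers. Depth limits low genes most: 3 counts are 0.440 CPM in normal 3 and 2.06 CPM in normal 5.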
